A study of Mus musculus with 22 samples.

Results

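The 92 genes described here encode potassium channel subunits and their closest auxiliary proteins. They are the protein-coding genes of the count table whose symbol is Kcn followed by a letter code and a digit, with the exception of Kcnj10. Of the 53379 genes in the table, 98 had a matching symbol. Kcnj10 and 5 non-coding transcripts were left out, and all 92 remaining genes passed the filter on low counts.

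The mice were adult males of the strain C57/BL6N, bought at 8 weeks of age and kept for a further 4 weeks. Kainate (70 nl, 20 mM), a glutamate receptor agonist that elicits status epilepticus, or 0.9% NaCl (sham) was injected above the right hippocampus under anesthesia, and kainate animals entered the study only if they had convulsive seizures. The left hippocampi, contralateral to the injection, were collected 24 h later from 8 mice per treatment and combined into 3 pools of 4 or 2 mice, and nuclei were sorted by the neuronal nuclear protein NeuN. The 11 mRNAseq libraries comprised 3 of kainate NeuN+ nuclei (neurons), 3 of sham NeuN+ nuclei, 3 of kainate NeuN- nuclei (glia) and 2 of sham NeuN- nuclei. The sample titles and the methods name the left side, while the deposited protocol names the right side. NeuN- nuclei come from a mixture of glial and other cells and may include neurons that NeuN does not stain, and in such bulk samples fewer nuclei of a type and less RNA per nucleus cannot be told apart.

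Total counts ranged from 12058875 to 45428465 per library. In the glia groups, replicate 2 of kainate and replicate 1 of sham had only about 0.05 ng of input RNA and 15 PCR cycles, whereas 1 ng and 10 cycles were used for the other libraries. Markers followed the sort. The summed level of 7 neuronal markers was 4800 to 9053 CPM (counts scaled by library size and normalized between libraries) in NeuN+ and 1021 to 1834 in NeuN- nuclei, and that of 6 oligodendrocyte markers was 209 to 475 and 4852 to 38943. Endothelial markers were close to absent, with a summed level of at most 28.7 CPM for 4 genes. On this contralateral side, 5 of 6 activity-regulated genes (Fos, Fosb, Arc, Nptx2 and Inhba, but not Bdnf) rose with kainate in neurons at a false discovery rate (FDR) below 0.25. The replicate 1 libraries of both glia groups had the most glial marker RNA.

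Potassium channels let K+ cross the membrane along its gradient, and thereby set the resting potential, repolarize the cell after an action potential and limit repetitive firing. Voltage-gated (Kv) channels are tetramers of pore subunits. Their gating and trafficking are modified by silent subunits, which form no channel on their own, and by auxiliary subunits such as the KChIPs, cytosolic calcium sensors that bind the Kv4 pore. KCNQ channels carry the M-current, which restrains firing. Inward rectifiers and K2P channels (with tandem pore domains) carry resting and G protein-controlled currents, and in glia they take part in clearing K+ that firing neurons release.

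The levels were first compared between genes in sham nuclei, as mean CPM per kilobase of merged exons. In neurons, Kcna1, a Kv1 pore subunit of axons, was the highest with 68.3 ± 12.4 (SD, n = 3) CPM per kilobase. Further members of high level were the Kv4 auxiliary subunit Kcnip2 (62.0 ± 19.4), the G protein-gated rectifier Kcnj9 (48.5 ± 13.5), the Kv4 pore subunit Kcnd2 (43.5 ± 4.83) and the K2P channel Kcnk1 (41.7 ± 32.6). Neighbors among these 5 differed by less than the larger of their SDs. In glia, Kcna1 again came first with 140 ± 106 (SD, n = 2) CPM per kilobase. Kcnk1 (36.0 ± 33.7), Kcnip3 (30.1 ± 17.4), Kcna6 (28.7 ± 21.2), Kcnk13 (28.6 ± 22.3) and the inward rectifier Kcnj16 (14.6 ± 11.9) followed it, and these neighbors too differed by less than the larger SD. The median member had a level of 4.21 CPM per kilobase in sham neurons and 1.89 in sham glia.

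**Figure D1:**
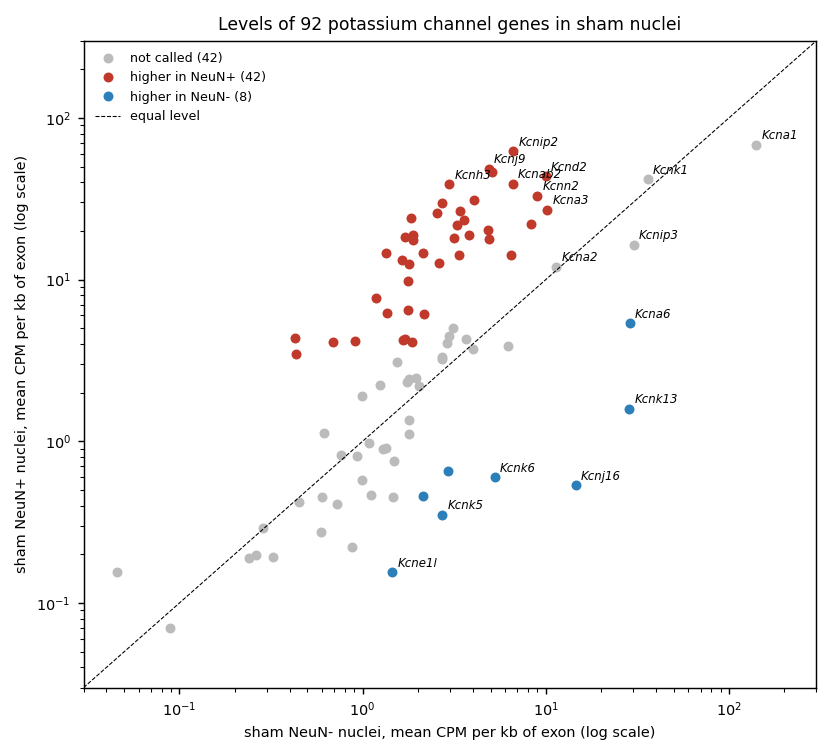
Mean level of each of the 92 potassium channel genes in sham NeuN- nuclei (x axis) and sham NeuN+ nuclei (y axis), in CPM per kilobase of exon on log scales; the dashed line marks equal levels. Red points, 42 genes higher in NeuN+ nuclei, fill the upper left, and blue points, 8 genes higher in NeuN- nuclei, the lower right (edgeR, FDR below 0.25).

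More potassium channel genes were higher in the neuronal than in the glial fraction. In sham nuclei, 42 of 92 were higher and 8 lower in NeuN+ than in NeuN- nuclei, thus 54.3% were called, against 16.7% of all 40714 genes tested and 24.4% of the protein-coding ones (edgeR's quasi-likelihood test, FDR below 0.25). Of all genes, 9.11% were higher and 7.63% lower, so the share of members lower in NeuN+ nuclei, 8.7%, was near that of all genes. In kainate nuclei, 48 were higher and 10 lower, 63.0% of the members against 20.7% of all genes (11.3% higher and 9.39% lower). Of the protein-coding genes, 29.6% were called there. The median log2 fold change of the members was 0.85 in sham and 1.05 in kainate nuclei, while that of all genes was -0.37 and -0.47. With the pool as a block, since both fractions came from the same animals, 47 members were higher and 14 lower in sham nuclei, where 34.0% of all genes were called (18.3% higher and 15.7% lower). In kainate nuclei, 56 members were higher and 18 lower with the block, where 49.3% of all genes were called (21.4% higher and 27.9% lower). With the block, 66.3% of the members in sham and 80.4% in kainate nuclei were called, against 46.7% and 61.3% of the protein-coding genes.

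The silent Kv subunits leaned furthest to the neuronal side. In sham nuclei, 8 of 10 were higher in NeuN+ nuclei and none was lower, with a median log2 fold change of 2.85. Kcnv1 had 103, 55.6 and 42.1 CPM in sham neurons and 5.11 and 7.14 CPM in sham glia (log2 fold change 3.45, SE 0.60, FDR = 0.00274). Kcng1 had 120, 67.3 and 61.7 CPM against 4.92 and 10.5 (3.43, SE 0.63, FDR = 0.0038), and the groups of both genes were wide apart. Among the 17 Kv pore subunits, 10 were higher and 1 was lower. The A-type channel Kcna4 had 107, 159 and 111 CPM in sham neurons and 9.71 and 15.1 CPM in sham glia (3.34, SE 0.47, FDR = 0.00143). Kcna6 was the exception, with 41.1, 29.5 and 25.3 CPM in neurons and 260 and 81.3 CPM in glia (-2.42, SE 0.53, FDR = 0.0103), although 39.6% of its exon bases are shared with the transcript Gm26673, and reads were counted without regard to strand.

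Of the 8 EAG, ERG and ELK channels, 5 were higher in NeuN+ nuclei and 1 was lower. Kcnh3, an ELK channel of forebrain neurons, had 255, 220 and 194 CPM in sham neurons and 10.9 and 23.3 CPM in sham glia (3.70, SE 0.64, FDR = 0.00258). Of the 5 KCNQ channels, 2 were higher, whereas Kcnq3 did not pass the test (79.6, 59.9 and 58.7 CPM against 52.5 and 34.8, 0.60, SE 0.36, FDR = 0.464). With the pool as a block, 3 were higher, Kcnq3 among them (0.68, SE 0.24, FDR = 0.0836). Of the 12 calcium- and sodium-activated channels and their subunits, 4 were higher, among them the BK channel Kcnma1 (2.08, SE 0.43, FDR = 0.00726) and the SK channel Kcnn2 (1.88, SE 0.47, FDR = 0.0208). Of the 12 Kv auxiliary subunits, 5 were higher and 1, Kcne1l, was lower, at a level of no more than 3.20 CPM in any library.

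Inward rectifiers and K2P channels split between the fractions. Without a block, the strong rectifier Kcnj4 had the highest log2 fold change of all members in sham nuclei (3.71, SE 0.64, FDR = 0.00253). It had 85.7, 50.4 and 19.9 CPM in neurons and 4.03 and 3.92 CPM in glia. With the pool as a block, Kcnj4 (3.37, SE 0.51) was below Kcnh3 (3.79, SE 0.60). At the other end stood Kcnj16, which pairs with Kcnj10 in astrocytes and had 0.403, 1.98 and 3.93 CPM in neurons and 90.4 and 24.4 CPM in glia (-4.73, SE 0.91, FDR = 0.00465). Over the 14 inward rectifiers, 5 were higher and 2 lower. The 14 K2P channels gave 3 higher and 3 lower. Kcnk13, known as a microglial background channel, had 5.71, 4.34 and 4.84 CPM in sham neurons and 138 and 39.7 CPM in sham glia (-4.17, SE 0.55, FDR = 0.00139). Kcnk6 (-3.13, SE 0.45, FDR = 0.00147) and Kcnk5 (-2.92, SE 0.83, FDR = 0.0425) were lower as well, and Kcnk12 (2.72, SE 0.57, FDR = 0.00742) and Kcnk4 (2.56, SE 0.53, FDR = 0.00695) were higher. In kainate nuclei, Kcnj4 (3.38) and Kcnk12 (3.13) were among the 6 members with the highest log2 fold changes, and Kcnj16 (-3.94), Kcnk13 (-2.69), Kcnk5 (-2.52) and Kcnk6 (-2.29) among the 6 with the lowest. The G protein-gated rectifier Kcnj5, at a low level, was among them too (0.427, 2.29 and 2.21 CPM in kainate neurons, 13.2, 9.3 and 9.22 CPM in kainate glia, -2.65, SE 0.80, FDR = 0.0517), while in sham nuclei it was called with the pool as a block (-2.58, SE 0.91, FDR = 0.0825) and not without it (-1.66, FDR = 0.338).

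**Figure D2:**
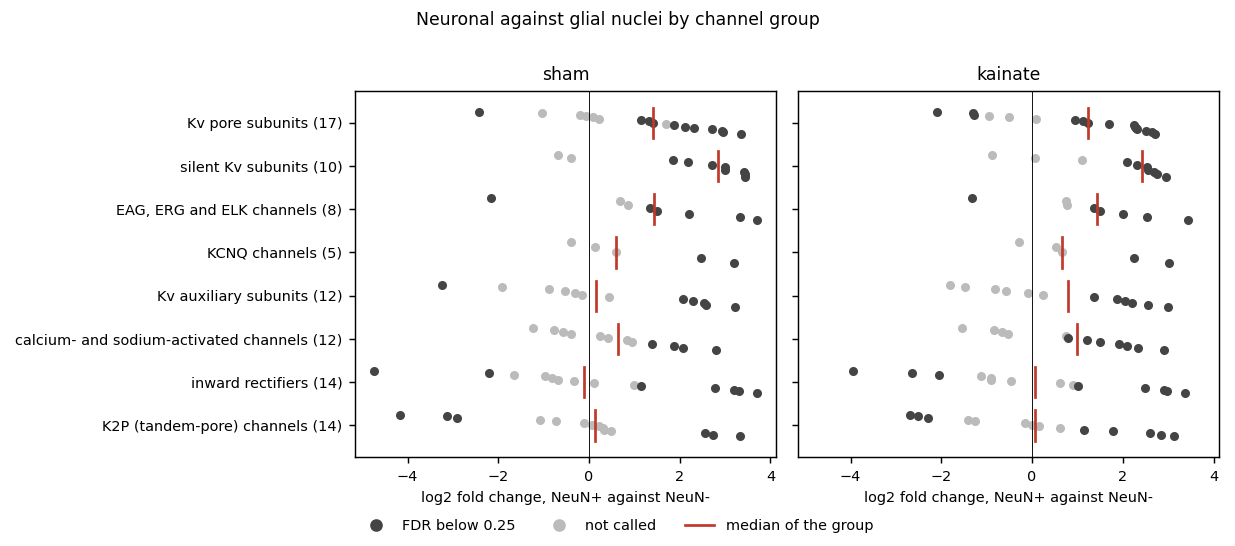
Log2 fold change of NeuN+ against NeuN- nuclei (x axis) for each potassium channel gene, by channel group, in sham and kainate nuclei; dark points passed FDR below 0.25, gray points did not, and red bars mark group medians. The silent Kv subunits have the highest median (2.85 in sham), and the inward rectifiers and K2P channels lie on both sides of 0.

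The next comparison asked whether seizures changed the transcripts of these channels in contralateral neurons. Without a block, no member passed FDR below 0.25 in neurons (edgeR's quasi-likelihood test), where 0.165% of all genes did, and 3 members, Kcnip3, Kcng2 and Kcnk13, had an unadjusted p under 0.05 (2.09% of all genes). DESeq2 called 1, Kcnip3, against 1.66% of the genes to which it gave an adjusted p. The members were split evenly, 46 with a positive and 46 with a negative log2 fold change, and their median was 0.00 against -0.01 for all genes. Kainate and sham libraries of the same replicate number deviated together, although replicate 2 no more than with another number, and with the replicate number as a block 13 members were called, 5 higher and 8 lower. These were 14.1% of the members, against 5.09% of all genes (3.19% higher and 1.9% lower) and 8.35% of the protein-coding genes. Leaving out replicate 1, 2 or 3 from this fit gave 7, 19 and 3 calls, where 3.97%, 7.41% and 1.68% of all genes were called. The groups did not overlap for 13 members (14.1%), against 7.86% of all genes, a description without a test. Markers of neuron types moved in the same libraries. Of 5 interneuron markers, Gad1 (0.61, FDR = 0.051) and Gad2 (0.60, FDR = 0.0991) were higher with the block and none was lower, and their summed level was 199 to 669 CPM in sham and 331 to 709 CPM in kainate neurons. Of 4 excitatory neuron markers, Camk2a was lower (-0.80, FDR = 0.0037) and none was higher, with summed levels of 2038 to 4060 CPM in sham and 1768 to 3539 CPM in kainate neurons. None of the 7 general neuronal markers was called. The part of the mix of neuron types in the values of the channels was not tested.

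Kcnip3 had the largest change. It encodes KChIP3, also known as DREAM or calsenilin, a calcium sensor that binds Kv4 channels and also acts as a transcriptional repressor. Its level was 73.2, 56.1 and 45.7 CPM in sham neurons and 155, 202 and 190 CPM in kainate neurons, and every kainate library was thus above every sham library. The log2 fold change was 1.65 (SE 0.38, FDR = 0.294) without a block and 1.67 (SE 0.20, FDR = 1.77e-08) with it. It was called in 12 of 22 alternative settings, and the FDR over them ranged from 2.29e-13 to 1. Among the fits without a block that left out 1 library, it was called without kainate glia replicate 3, sham glia replicate 1 or sham glia replicate 3. Within the replicate pairs, the log2 difference was 1.08, 1.85 and 2.06. Kcnip3 is also expressed in glia, with 150 and 63.4 CPM in sham and 77.0, 80.1 and 57.0 CPM in kainate libraries, so the kainate neuron libraries were above all kainate glia libraries. In kainate nuclei NeuN+ exceeded NeuN- (log2 fold change 1.36, SE 0.38, FDR = 0.0343), whereas in sham nuclei the lower level in NeuN+ nuclei did not pass the test without a block (-0.87, SE 0.41, FDR = 0.284) and did with it (-0.76, SE 0.27, FDR = 0.0903). By level per kilobase in neurons, Kcnip3 was at rank 26 of the members in sham and at rank 4 in kainate.

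The other KChIPs differed from it. Kcnip2 (KChIP2) had 291, 160 and 196 CPM in sham and 186, 96.4 and 55.3 CPM in kainate neurons. The groups overlapped, with kainate replicate 1 above sham replicate 2, but the kainate library was lower in 3 of 3 pairs. Its log2 fold change was -0.94 (SE 0.45, FDR = 1) without and -1.06 (SE 0.20, FDR = 0.000202) with the block. Kcnip1 (0.17, SE 0.24, FDR = 0.999) and Kcnip4 (-0.33, SE 0.21, FDR = 0.765) did not pass the test with the block, nor did their pore partner Kcnd2 (-0.30, SE 0.18, FDR = 0.745).

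The start sites of both KChIP genes that were called are shown because the genes were called in opposite directions, together with those of Kcna2 and Kcna3, a pair of neighbors on chromosome 3 described further below. Each window runs from 250 bases before to 50 bases after a RefSeq transcription start (GRCm38.p6, the assembly of mm10), 5′ to 3′ on the strand of the gene. A window was found for 67 of the 92 members. Capitals mark a match to the AP-1 motif TGANTCA, which was searched on both strands, begins 122 bases before the start site of Kcnip3 and reads TGACTCA. Of 32851 windows, 7.81% held this motif, as did 4 of the 92 windows of these members (4.35%), those of Kcne3, Kcnip3, Kcnip4 and Kcnk2. The CRE motif TGACGTCA (1.79% of all windows) and the EGR motif GCGTGGGCG (0.612%) were in no window of a member. The windows at 2 further starts of Kcnip3 held none of the motifs. The Kcnip3 window lies at chr2:127522045-127522344 (minus strand), that of Kcnip2 at chr19:45816014-45816313 (minus strand), that of Kcna2 at chr3:107101317-107101616 (plus strand) and that of Kcna3 at chr3:107035912-107036211 (plus strand).
Kcnip3: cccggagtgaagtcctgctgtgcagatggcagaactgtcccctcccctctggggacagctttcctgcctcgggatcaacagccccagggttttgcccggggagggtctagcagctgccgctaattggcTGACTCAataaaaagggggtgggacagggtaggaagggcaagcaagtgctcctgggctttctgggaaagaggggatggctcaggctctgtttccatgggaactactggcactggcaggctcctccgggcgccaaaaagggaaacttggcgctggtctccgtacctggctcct
Kcnip2: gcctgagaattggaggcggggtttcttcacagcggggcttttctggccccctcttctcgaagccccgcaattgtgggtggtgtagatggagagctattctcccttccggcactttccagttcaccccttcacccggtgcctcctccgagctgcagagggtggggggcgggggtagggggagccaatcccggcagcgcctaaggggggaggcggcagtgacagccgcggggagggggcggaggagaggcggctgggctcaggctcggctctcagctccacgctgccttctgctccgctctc
Kcna2: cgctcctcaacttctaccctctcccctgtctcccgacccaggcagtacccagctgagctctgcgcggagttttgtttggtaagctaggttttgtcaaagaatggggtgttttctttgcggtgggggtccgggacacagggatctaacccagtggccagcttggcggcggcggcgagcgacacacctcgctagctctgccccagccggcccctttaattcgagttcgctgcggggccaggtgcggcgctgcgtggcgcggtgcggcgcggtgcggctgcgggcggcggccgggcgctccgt
Kcna3: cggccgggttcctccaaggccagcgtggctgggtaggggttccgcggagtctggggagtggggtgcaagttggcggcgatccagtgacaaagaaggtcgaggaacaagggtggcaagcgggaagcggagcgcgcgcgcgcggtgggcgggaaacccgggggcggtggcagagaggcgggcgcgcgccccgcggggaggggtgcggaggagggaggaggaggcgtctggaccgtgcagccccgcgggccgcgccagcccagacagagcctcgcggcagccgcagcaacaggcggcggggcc

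**Figure D3:**
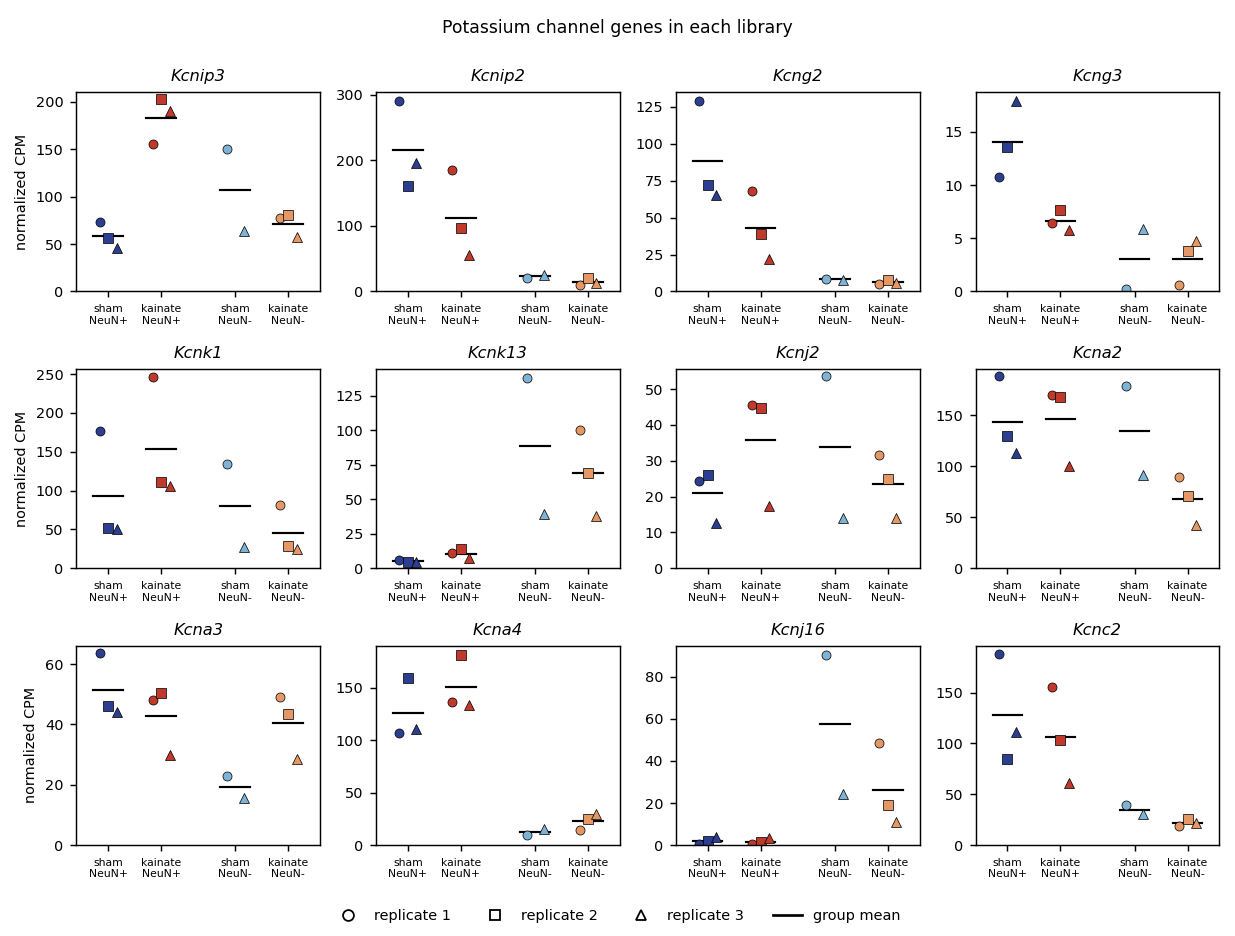
Normalized CPM (y axis, each panel from 0) of 12 potassium channel genes in all 11 libraries, by group; marker shapes give the replicate number and bars the group mean. The 3 kainate neuron libraries of Kcnip3 lie between 155 and 202 CPM, all above the sham neuron libraries, and for Kcnk1 the replicate 1 libraries lie above the others of their group.

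A pair of silent Kv subunits was lower after kainate in neurons with the block. Kcng2 had 129, 71.7 and 65.0 CPM in sham and 68.0, 39.0 and 22.1 CPM in kainate neurons, and its log2 fold change was -1.12 (SE 0.20, FDR = 0.000126; -1.04, FDR = 1, without the block). Kcng3, at a lower level, had 10.7, 13.5 and 17.9 CPM in sham and 6.4, 7.65 and 5.81 CPM in kainate neurons (-1.06, SE 0.30, FDR = 0.0298). The Kcng3 groups did not overlap, whereas kainate replicate 1 of Kcng2 lay above sham replicate 3. Kcnf1, Kcng1 and Kcnv1 were not called. Among the Kv pore subunits, the Kv2 channel Kcnb2 was lower in the same test (-0.58, SE 0.20, FDR = 0.159). The sodium-activated channel Kcnt2 was lower too, from 122, 65.3 and 69.9 CPM in sham to 71.1, 58.7 and 32.7 CPM in kainate neurons (-0.67, SE 0.20, FDR = 0.0539).

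K2P channels and inward rectifiers moved both ways in neurons with the block. Kcnk9, a TASK channel, had 44.6, 57.1 and 59.1 CPM in sham and 30.3, 42.9 and 26.3 CPM in kainate neurons (-0.71, SE 0.21, FDR = 0.0543), and the groups did not overlap. Kcnk1 (TWIK) had 177, 52.3 and 50.1 CPM in sham and 246, 111 and 105 CPM in kainate neurons (0.88, SE 0.19, FDR = 0.00166). Without the block, Kcnk1 was far from the threshold (0.73, SE 0.67, FDR = 1). Its replicate 1 library was the highest in both groups. Kcnj2, a strong inward rectifier, had 24.4, 26.1 and 12.6 CPM in sham and 45.6, 44.7 and 17.3 CPM in kainate neurons (0.71, SE 0.21, FDR = 0.0517). The G protein-gated Kcnj9 had 274, 167 and 182 CPM in sham and 144, 172 and 89.5 CPM in kainate neurons (-0.64, SE 0.20, FDR = 0.0683), and in the pair of replicate 2 the kainate library was the higher one. Its partners Kcnj3 (-0.29, SE 0.20, FDR = 0.828) and Kcnj6 (-0.21, SE 0.19, FDR = 0.951) did not pass the test.

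Kcnk13 and Kcnk6 rose in neurons with the block, but both are genes of the NeuN- fraction. Kcnk13 had 5.71, 4.34 and 4.84 CPM in sham and 10.7, 13.7 and 7.52 CPM in kainate neurons (1.08, SE 0.22, FDR = 0.00097), against 37.6 to 138 CPM in glia. Kcnk6 had 2.48, 2.70 and 2.29 CPM in sham and 5.12, 4.43 and 3.87 CPM in kainate neurons (0.83, SE 0.27, FDR = 0.0988), against 12.6 to 29.7 CPM in glia. Neither gene's groups overlapped. In the same neuron libraries, the summed level of 6 astrocyte markers was 170 to 234 CPM in sham and 252 to 410 CPM in kainate, with 4 called higher and 2 lower by the block, and that of 6 microglia markers was 44.6 to 67.5 and 67.4 to 73.2 CPM, with Csf1r called higher and P2ry12 lower. The part of glial RNA in the rise of Kcnk13 and Kcnk6 was not tested. The oligodendrocyte markers summed to 263 to 475 CPM in sham and 209 to 447 CPM in kainate neurons.

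Several further members did not pass the test in neurons, in either fit. The KCNQ channel Kcnq3 had 79.6, 59.9 and 58.7 CPM in sham and 59.0, 52.1 and 39.7 CPM in kainate neurons (-0.40, SE 0.19, FDR = 0.503). Its groups overlapped by sham replicate 3 and kainate replicate 1, and the kainate library was lower in 3 of 3 pairs. Log2 fold changes with the block were -0.20 (SE 0.17) for Kcna1, 0.02 (SE 0.18) for Kcna2, 0.23 (SE 0.19) for Kcnma1, 0.18 (SE 0.30) for its auxiliary subunit Kcnmb4 and 0.39 (SE 0.18) for Kcnn2, with FDRs from 0.478 to 1. Without a block, the values of Kcna2 and Kcnmb4 changed sign when single libraries were left out. Kcnk10, a TREK channel, was higher in every kainate library than in any sham library (45.4 to 58.8 against 29.8 to 43.7 CPM), with 0.52 (SE 0.20, FDR = 0.276).

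**Figure D4:**
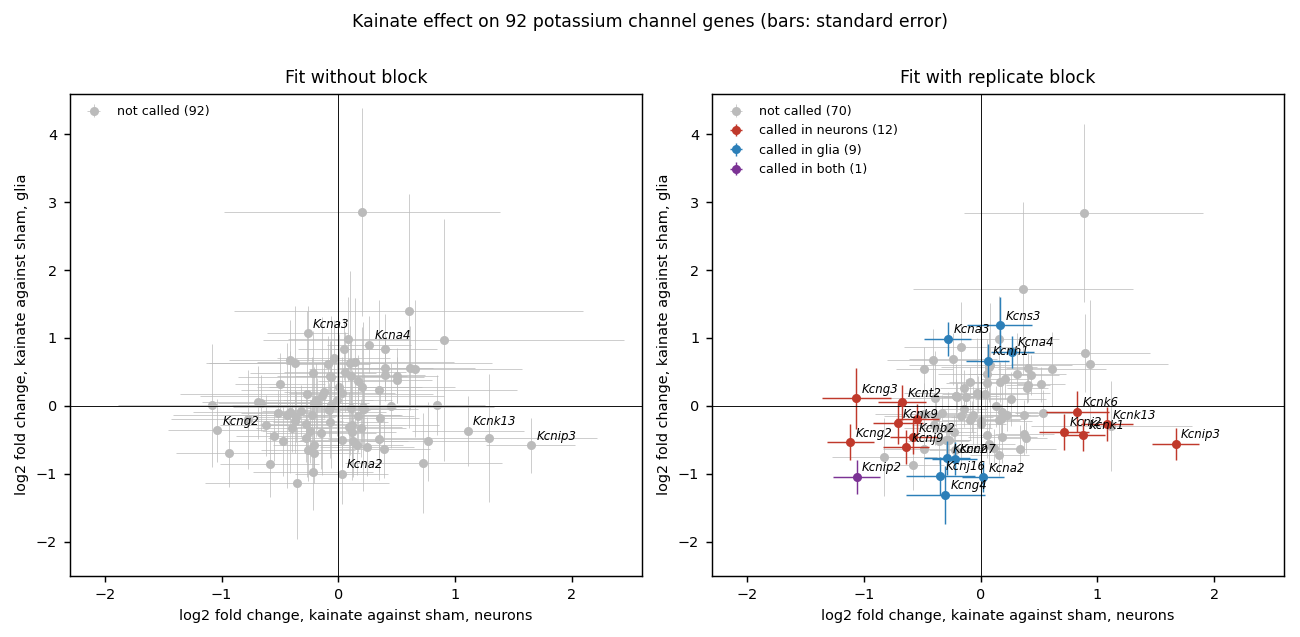
Log2 fold change of kainate against sham in neurons (x axis) and glia (y axis) for the 92 potassium channel genes, without a block (left) and with the replicate number as a block (right); bars are standard errors. No gene is called on the left, and 13 in neurons and 10 in glia on the right, with Kcnip2 the 1 gene called in both and Kcnip3 farthest to the right at 1.67.

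In glia, too, no member passed FDR below 0.25 without a block (edgeR's quasi-likelihood test), where 0.101% of all genes did. DESeq2 called none (1.43% of the genes to which it gave an adjusted p), and 3 members, Kcna2, Kcna3 and Kcna4, had an unadjusted p under 0.05 (2.05% of all genes). With the block, which in glia rests on the pairs of replicates 1 and 3, 4 members were higher and 6 lower. In the pair of replicate 1, the kainate library had 1 ng of input RNA and 10 PCR cycles, and the sham library about 0.05 ng and 15 cycles. Kainate and RNA input cannot be told apart in that pair. The 10 members called are given below. They were 10.9% of the members, against 5.79% of all genes (2.93% higher and 2.86% lower) and 9.67% of the protein-coding genes, a share near that background. Leaving out replicate 1, 2 or 3 gave 0, 22 and 5 calls, where 1.35%, 10.1% and 4.7% of all genes were called. Without sham glia replicate 3, the fit without a block called 7 members and 6.59% of all genes, a share near that of the members. The median log2 fold change with the block was -0.13 over the members and 0.11 over all genes. The groups, with only 2 sham libraries, did not overlap for 19 members (20.7%), against 8.22% of all genes. With so few libraries, groups often separate fully without any effect, so no excess can be read from these shares.

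Kv1 channels gave values in both directions in glia. Kcna2 had 179 and 91.3 CPM in sham and 89.4, 70.5 and 42.5 CPM in kainate glia, so that every kainate library was lower (-1.05, SE 0.22, FDR = 0.00183 with the block and FDR = 1 without). Kcna3, whose product controls K+ flux in microglia and T cells, had 22.9 and 15.7 CPM in sham and 49.2, 43.5 and 28.7 CPM in kainate glia, all above sham (0.99, SE 0.25, FDR = 0.0134 with the block). Kcna3 was not confined to glia, with 63.7, 46.2 and 44.2 CPM in sham neurons, all above sham glia. The cell type behind its rise in the glial fraction was not tested. Both genes lie on the plus strand of chromosome 3, Kcna2 at chr3:107101146-107115005 and Kcna3 at chr3:107036169-107038070. Kcna4, a mainly neuronal gene, had 9.71 and 15.1 CPM in sham and 14.6, 25 and 29.9 CPM in kainate glia, where kainate replicate 1 was below sham replicate 3 (0.80, SE 0.24, FDR = 0.0491). Kcna1 had 1026 and 313 CPM in sham and 980, 700 and 391 CPM in kainate glia and did not pass the test (0.13, SE 0.21, FDR = 0.991 with the block). Without a block the sign for Kcna1 followed the scaling, with 0.04 under edgeR's normalization and -0.05 under DESeq2's size factors.

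The other members called in glia with the block were spread over the groups. Kcnip2 was lower, as in neurons, with 20.6 and 25.5 CPM in sham and 10.1, 20.1 and 12.3 CPM in kainate glia (-1.04, SE 0.25, FDR = 0.00786). Kcnj16 had 90.4 and 24.4 CPM in sham and 48.4, 18.8 and 10.9 CPM in kainate glia (-1.03, SE 0.28, FDR = 0.0251). The Kcnj16 groups overlapped and replicate 1 was the highest in each. Without sham glia replicate 1, a low-input library, the log2 fold change without a block turned from -1.14 to 0.12 for Kcnj16 and from -0.70 to 0.01 for Kcnh7. Kcnc2 (-0.77, SE 0.25, FDR = 0.0856), Kcnh7 (-0.78, SE 0.25, FDR = 0.0817) and Kcng4 (-1.31, SE 0.43, FDR = 0.102) were lower, and the silent subunit Kcns3 (1.19, SE 0.41, FDR = 0.128) and the EAG channel Kcnh1 (0.67, SE 0.24, FDR = 0.165) were higher. Kcna10 was near absent (0 and 0.198 CPM in sham, 0.314 to 1.04 CPM in kainate glia), and Kcnf1 (0.56, SE 0.25, FDR = 0.4) and Kcnk4 (-0.87, SE 0.38, FDR = 0.348) were not called.

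Glial markers differed between the same libraries. The summed level of the oligodendrocyte markers was 8752 and 38943 CPM in sham and 4852 to 27163 CPM in kainate glia, that of the astrocyte markers 1047 and 3999 against 625 to 3126 CPM, and that of the microglia markers 656 and 3561 against 651 to 1877 CPM. With the block, 4 of 6 oligodendrocyte, 3 of 6 astrocyte, 2 of 6 microglia and 3 of 3 oligodendrocyte precursor markers were lower, and 1 astrocyte marker, Gfap, was higher. The neuronal markers summed to 1021 and 1834 CPM in sham and 1096 to 1261 CPM in kainate glia. Of the 7 neuronal, 5 interneuron and 4 excitatory neuron markers, Gad1 (0.87, FDR = 0.0188) and Tubb3 (0.73, FDR = 0.112) were higher and Camk2a (-0.69, FDR = 0.0978) was lower in kainate glia with the block. The part of this composition in the glial values of the channels was not tested.

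The kainate effect was then compared between the cell types. Without a block, no member differed at FDR below 0.25 (edgeR; 0.00246% of all genes did), and 2 members, Kcnip3 and Kcna3, had an unadjusted p under 0.05 (0.909% of all genes). DESeq2 called 1, Kcnip3, against 0.174% of the genes to which it gave an adjusted p. With the block, the log2 fold change in neurons exceeded that in glia for 6 members, and the reverse held for 1. These were 7.61% of the members, against 1.94% of all genes (1.23% higher in neurons and 0.702% lower). Of the protein-coding genes, 3.32% were called. The 6 were Kcnip3 (difference 2.23, SE 0.31, FDR = 7.47e-06), Kcnk13 (1.35, SE 0.33, FDR = 0.0286), Kcnk1 (1.31, SE 0.30, FDR = 0.0126), Kcnj2 (1.10, SE 0.34, FDR = 0.151), Kcna2 (1.07, SE 0.29, FDR = 0.0529) and Kcnn2 (0.86, SE 0.29, FDR = 0.248). Kcna3 had a difference of -1.27 (SE 0.32, FDR = 0.033). For Kcnip2, lower in both cell types, the difference was -0.02 (SE 0.32). Leaving out replicate 1, 2 or 3 gave 1, 8 and 5 calls, with Kcnip3 among them each time, where 0.326%, 2.99% and 2.3% of all genes were called. Without sham glia replicate 1, the difference in the fit without a block turned from 1.57 to -0.02 for Kcnk1 and from 1.29 to -0.01 for Kcnj2.

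Among 24 other genes of potassium handling, written from general knowledge (pumps, cation-chloride cotransporters and partner proteins of channels), none passed FDR below 0.25 for kainate against sham without a block in either cell type. With the block, 2 rose and 4 fell in neurons, where 5.09% of all genes were called. Abcc8, the sulfonylurea receptor of ATP-sensitive channels, had a mean of 234 CPM in sham and 91.1 CPM in kainate neurons (-1.44). The pump subunit Atp1b3 (0.74) rose and Atp1b2 (-0.69) fell, as did Lgi1 (-0.64), a secreted binding partner of the Kv1 complex, and Cntnap2 (-0.58, FDR = 0.0949), which gathers Kv1 channels along axons. In glia, where 5.79% of all genes were called, 1 rose and 7 fell, among them Cntn2, an adhesion protein of Kv1 clusters along myelinated axons (-1.16, FDR = 0.000621), with means of 951 CPM in sham and 491 CPM in kainate glia. In sham nuclei, 11 of the 24 were higher and 6 lower in NeuN+ nuclei, and in kainate nuclei 12 and 7, where 16.7% and 20.7% of all genes were called.

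The members whose log2 CPM over the 11 libraries were most like those of Kcnip3 were Kcnj2 (Pearson's r = 0.66), Kcnk1 (0.65), Kcnk10 (0.56), Kcnk3 (0.54) and Kcnn1 (0.53). Both fractions of a number and treatment came from the same pool, the total counts of the libraries differed as given above, and the order is a description without a test.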

How the data were processed

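The authors trimmed the mRNAseq reads with Trim Galore (0.4.3), aligned them to mm10 with Rsubread, assigned unique reads to GENCODE release 16 genes with featureCounts and deposited raw counts per gene. The kit was unstranded and the reads carried no molecular identifiers. Part of the libraries was read as single and part as paired ends; which ones is not given in the sources used here. The bisulfite samples were not analysed here.

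Symbols, gene types and merged exon lengths came from GENCODE release 21. In R (4.3.3), 105 of the 53379 genes had no symbol and were left out, and genes passing filterByExpr (minimum count 10, total 15) entered 1 edgeR (4.0.16) quasi-likelihood model of the 4 groups, with TMM scaling, the Benjamini-Hochberg adjustment over all 40714 genes and FDR below 0.25. The common biological coefficient of variation was 0.6. CPM in the text are TMM-normalized. The fit without a block was tested on simulated data, and the fits with a block were not. Replicates were pools of mice, so without a block p-values measure the spread between pools. With the replicate number as a block, they measure the spread left after removing deviations shared by libraries of 1 number. Kainate and sham pools of 1 number held different mice. With the pool as a block, they measure the spread of differences within pools. The model also draws on the spread of other genes, so a small FDR does not stand for many pools.

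The replicate number was added as a block because the correlations between libraries of 1 number were all above 0.1. The correlation of deviations from the group means between kainate and sham was 0.643, 0.161 and 0.491 in neurons and 0.76 and 0.787 in glia (replicates 1 and 3). The 2 sham glia libraries deviate from their mean by equal and opposite amounts. The glial values of unlike numbers (-0.76 and -0.787) are therefore fixed by those of like numbers and add no support. In neurons, unlike numbers ranged from -0.6 to 0.418, and kainate replicate 2 correlated as well with sham replicate 3 (0.166) as with sham replicate 2. Both NeuN fractions of a pool came from the same mice, with correlations from 0.24 to 0.668, so the pool was the block there.

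Alternatives were DESeq2 (1.42.0) and its size factors, other filters, FDR below 0.05, separate fits per comparison, the newer quasi-likelihood method, the block, and leaving out each library or both low-input libraries. Leaving replicate numbers out of the blocked fit was added after seeing the data.

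The rule named the 8 members of smallest p for kainate in neurons and in glia, the 10 of smallest p called by the block in each kainate comparison, the 6 highest and 6 lowest called between fractions, a list of 17 channels irrespective of values, and the 5 members most like Kcnip3 over the libraries. The highest members per kilobase, those with a motif and those not overlapping were named besides. Kcnb2, Kcnj11, Kcnj8, Kcnh4, Kcnh8 and the genes outside the members were named after their values were seen. Some genes named by the rule are not reported here. Members and lists were chosen with earlier results of these data known.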

Additional observations from a re-analysis of the deposited data

Results flagged for a closer look

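For 7 members, the effect of kainate differed between neurons and glia in the test of the difference itself with the replicate number as a block (edgeR, FDR below 0.25). Given as neurons minus glia on the log2 scale, the differences were 2.23 for Kcnip3, 1.35 for Kcnk13, 1.31 for Kcnk1, 1.10 for Kcnj2, 1.07 for Kcna2, 0.86 for Kcnn2 and -1.27 for Kcna3. In the fit without a block none of the 7 was called. Kcnip3 was called with each replicate number left out in turn of the blocked fit, where the fit without replicate 1 called 1 member in all. The difference for Kcna2 came with a log2 fold change of -1.05 in glia and 0.02 in neurons, and that for Kcna3 with 0.99 in glia.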

How the results depend on the processing

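With 3 or 2 pools per group, the number of members called for kainate against sham depended on the block. Between fractions, the pool block raised it from 50 to 61 in sham and from 58 to 74 in kainate nuclei. Without a block 0 members were called in neurons, 0 in glia and 0 for the difference. With the replicate block, 13, 10 and 7 were called, and without replicate 1, 2 or 3 in that blocked fit 7, 19 and 3 in neurons, 0, 22 and 5 in glia and 1, 8 and 5 for the difference. In neurons, 1 member was called by DESeq2, with a filter of 1 CPM in 3 libraries, in the separate fit, by the newer quasi-likelihood method and without both low-input libraries. DESeq2 also called 1 for the difference, which separate fits could not give. Leaving out 1 library gave 0 to 1 calls in neurons, 0 to 7 in glia and 0 for the difference. The counts of 50 members between fractions in sham and 58 in kainate nuclei stayed within 1.5 times under every alternative, with 45 to 57 and 51 to 64 when 1 library was left out. When a sham glia library was left out, the spread of the remaining 1 was assumed equal to that of the other groups. The cause of these changes was not tested.

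Some values that passed no test without a block changed sign. In glia, Kcna1 (0.044) was -0.054 with DESeq2's size factors, -0.054 by DESeq2 and -0.016 without a filter, and in neurons Kcna2 (0.026) was -0.027 without a filter. Without both low-input libraries, glial values became 0.10 for Kcnip3, 0.31 for Kcnj16, -0.31 for Kcnj6, 1.00 for Kcnk1, 0.31 for Kcnma1, 0.0076 for Kcnmb4, 0.15 for Kcnn2 and 0.039 for Kcnq3, and the difference for Kcnk1 became -0.27. With 1 library left out, values in glia ranged from -0.58 to 1.17 for Kcna1, -1.17 to 0.015 for Kcnh7, -1.08 to 0.20 for Kcnip3, -2.08 to 0.12 for Kcnj16, -0.15 to 1.63 for Kcnj6, -1.76 to 0.75 for Kcnk1, -0.40 to 0.42 for Kcnma1, -0.92 to 0.018 for Kcnmb4, -1.12 to 0.094 for Kcnn2 and -0.60 to 0.024 for Kcnq3. In neurons they ranged from -0.12 to 0.27 for Kcna2, -0.052 to 0.42 for Kcnip1, -1.16 to 0.43 for Kcnj16, -0.69 to 0.15 for Kcnj3 and -0.18 to 0.65 for Kcnmb4, and differences from -0.0074 to 1.97 for Kcnj2 and -0.024 to 2.46 for Kcnk1. For 9 of the 10 genes in glia the highest value was the one without sham glia replicate 1. Under alternatives other than leaving out 1 library, 652 values of named genes kept direction and call, 34 gained a call, 4 lost it and 13 changed sign.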

Other observations

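ATP-sensitive potassium channels combine a Kir6 pore with a sulfonylurea receptor, and their genes split by fraction. These genes were picked after their values were seen. The pore gene Kcnj11 had 18.7, 13.3 and 13.6 CPM in sham neurons and 5.56 and 8.18 CPM in sham glia, without overlap (log2 fold change 1.14, SE 0.48, FDR = 0.205, edgeR). The receptor gene Abcc8 was higher in sham neurons too, with means of 234 and 30.1 CPM (2.96, FDR = 0.00601). The other pore gene, Kcnj8, had 0.806, 1.23 and 1.45 CPM in sham neurons and 6.58 and 4.31 CPM in sham glia (-2.21, SE 0.54, FDR = 0.018), and the receptor gene Abcc9 had means of 2.82 and 8.65 CPM (-1.60, FDR = 0.25 without and 0.0165 with the pool as a block). In kainate neurons, Abcc8 was lower with the replicate number as a block (-1.44, SE 0.20, FDR = 4.41e-07), with 129, 88.9 and 55.2 CPM against 252, 213 and 236 CPM in sham, while Kcnj11 had 13.0, 12.4 and 9.82 CPM and did not pass the test (-0.36, SE 0.26, FDR = 0.865).

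The ELK channel gene Kcnh8 was higher in glia than in neurons, the reverse of the ELK genes Kcnh3 and Kcnh4. It had 3.36, 1.67 and 3.90 CPM in sham neurons and 14.9 and 11.8 CPM in sham glia (-2.17, SE 0.44, FDR = 0.00642), whereas Kcnh4 had 26.3, 28.6 and 19.4 CPM and 2.68 and 8.03 CPM (2.20, SE 0.47, FDR = 0.00886).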
